A study of Mus musculus with 23 samples.

Results

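Serpina1b, Baiap2l1, Rpgrip1, Ang, Sox11, Nxpe4, Acoxl and Pttg1 are 8 mouse genes chosen by their very large difference in array signal between 2 inbred strains in control lungs. They are 8 of 18193 genes that had a probe set annotated with that symbol alone, and 22 of the 45037 probe sets measured belonged to them. The signal came from the whole right lung on expression arrays. The groups were CF lungs of BALB/c mice (BALB, genotype CF-/-, 3 females and 3 males), CF lungs of C57BL/6 mice (B6, CF-/-, 3 females and 2 males), control lungs of BALB mice (CF+/+, 3 and 3) and control lungs of B6 mice (CF+/+, 3 and 3). The labels give no age, no other allele and no treatment, and nothing in them tells if a group's arrays are separate animals. The p-values therefore reflect the spread among the arrays at hand, part of which may be technical.

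The 8 genes have unrelated known roles. Serpina1b encodes a form of alpha-1 antitrypsin, a serine protease inhibitor that the liver secretes and that protects the lung from neutrophil elastase. Ang encodes angiogenin, a secreted ribonuclease that promotes the growth of blood vessels. Baiap2l1 encodes an I-BAR protein, which bends the plasma membrane and links it to actin. Rpgrip1 encodes a protein of the connecting cilium of photoreceptors, Sox11 a SoxC transcription factor used mainly in the embryo, and Pttg1 encodes securin, which holds separase inactive until sister chromatids part. Acoxl resembles the acyl-CoA oxidases of peroxisomes, and Nxpe4 is a member of the neurexophilin and PC-esterase domain family.

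The values were taken as log2 signals, a scale inferred from the values, so a difference of 1 is a 2-fold change. Signals of different probe sets are not on one scale. Levels of different genes are therefore set against each other only roughly, by the range of genes that lung does not use and by rank among all probe sets. The strain difference in control lungs chose the genes, and it is described below without a test. The test of each gene was the strain difference in CF lungs, BALB minus B6 with both sexes weighted equally. The difference was read on 11 arrays that the choice did not use. Its SE and p-value rest on the spread over all 23 arrays, the control arrays among them. The same 2 strains were compared in the choice, so a gap in CF lungs was likely beforehand. All 45037 probe sets were fitted together with limma, with Benjamini-Hochberg adjustment over the whole table and a threshold of 0.05.

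Several arrays stood apart from the rest of their group. The mean of 6 squamous epithelium markers and the mean of 6 skeletal muscle markers were high on 5 arrays: all 3 BALB CF females (6.64 to 8.33 for squamous and 6.76 to 8.70 for muscle markers), B6 control male 3 (8.35 and 8.12) and B6 control female 1 (5.78 and 5.88). On the other 18 arrays these means reached at most 4.42 and 4.79. The mean of 8 intestinal markers was above 5 on 4 BALB control arrays and on B6 control female 1. Cftr was lower in BALB CF lungs (3.99 ± 0.38, SD, n = 6) than in BALB control lungs (5.66 ± 0.18, n = 6) at its brighter probe set, without overlap, whereas B6 CF lungs (4.06 ± 0.22, n = 5) and B6 control lungs (4.28 ± 0.19, n = 6) overlapped. The genotype label of the B6 arrays therefore could not be checked with this gene. Xist separated 12 female arrays from 11 male arrays completely.

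In CF lungs the strains differed at 18 of the 22 probe sets, and at the brightest probe set of each of the 8 genes. BALB was higher at 4 probe sets, those of Serpina1b and Baiap2l1, against 8.66% of all probe sets, and lower at 14, against 9.52%. The difference was 2-fold or more at 17 of the 22, against 1.51% of all probe sets. At 18 of the 22 the BALB and B6 arrays did not overlap, against 9.82%. The median size of the difference over the 22 probe sets was 2.97 (log2), against 0.102 over all probe sets. Of 43 probe sets in the whole table with a difference of 3 or more, 11 belonged to these genes.

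**Figure D1:**
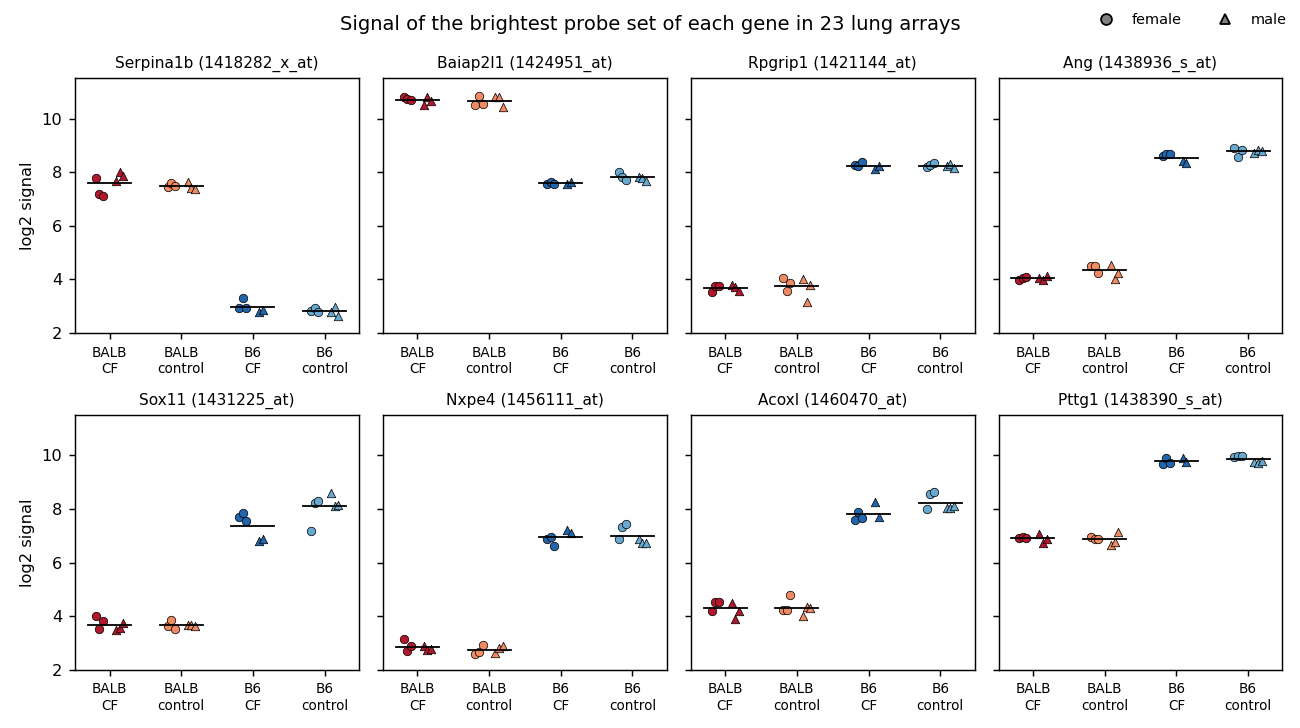
Log2 signal of the brightest probe set of each gene (y axis) on each array, in BALB CF, BALB control, B6 CF and B6 control lungs (x axis); circles are females, triangles males and the bar is the group mean. All BALB arrays lie above all B6 arrays for Serpina1b and Baiap2l1 and below them for the other 6 genes; Sox11 in B6 lungs shows the widest spread, 6.81 to 8.60.

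Serpina1b was high in BALB lungs and near the lowest signals of the table in B6 lungs. In BALB CF lungs the brightest probe set (1418282_x_at) read 7.11 at the lowest, 7.72 at the median and 7.99 at the highest. The B6 CF lungs read 2.95, 3.32 and 2.92 in females and 2.77 and 2.86 in males. The 2 ranges lay 3.79 apart. BALB was higher by 4.66 (SE 0.11, limma adjusted p = 1.65e-18), and in control lungs the difference was 4.67. The B6 level lay within the range of genes that lung does not use, given below, so no fold is given for this gene or for the other 5 of which the same holds. The second probe set (1451513_x_at) gave a difference of 3.998 (SE 0.07, adjusted p = 4.32e-20). In BALB the CF females, which carried the squamous and muscle signal, averaged 7.36 ± 0.36, and the CF males averaged 7.85 ± 0.16 (SD, n = 3 each). Without the arrays high in squamous or muscle markers, which leaves males alone, the strain difference was 5.03. None of the 8 hepatocyte markers measured, albumin among them, passed the test between the strains in CF lungs.

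Serpina1b belongs to a cluster of near-identical genes, and both of its probe sets are of a class whose probes can match more than one transcript, so the signal is uncertain as to the copy it came from. The other probe sets that name genes of this cluster showed no comparable gap. Serpina1c averaged 3.19 ± 0.18 in BALB CF lungs (SD, n = 6) and 2.99 ± 0.07 in B6 CF lungs (n = 5), a difference of 0.20 (adjusted p = 0.245). A probe set annotated to Serpina1d and Serpina1a differed by 0.07 (limma adjusted p = 0.467). Another, annotated to Serpina1e, Serpina1c and Serpina1b, differed by 0.25 (adjusted p = 0.00303), with means of 2.89 in BALB CF lungs and 2.65 in B6 CF lungs. Its arrays did not overlap (2.83 to 2.95 in BALB, 2.54 to 2.79 in B6). It names Serpina1b too, yet it read low in BALB, unlike the probe sets of Serpina1b alone. Of 5 measured genes in a list of alpha-1 antitrypsin genes and the neutrophil proteases they inhibit, 1 was higher in BALB CF lungs, Serpina1b itself, and none was lower, so of the 4 others 0 passed, where 19.7% of all genes passed in either direction (limma, brightest probe set of each gene). The proteases Elane, Prtn3 and Ctsg differed by -0.04, -0.06 and -0.15 with adjusted p-values of 0.863, 0.781 and 0.386.

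The start regions of Serpina1b and Serpina1c are shown because the strain gap was read at the probe sets annotated to Serpina1b alone and not at that of Serpina1c. The Serpina1c probe set read low in both strains, and the copy that gave the Serpina1b signal is uncertain. Each window runs from 250 bases before to 50 bases after the start of the gene, on the minus strand of chromosome 12 in GRCm38.p6, the RefSeq reference, which is a B6 sequence; the BALB sequence was not used here. The Serpina1b window is chr12:103738140-103738439 and the Serpina1c window is chr12:103904901-103905200. Capitals mark bases that differ between the 2 windows or have no partner in their alignment.
Serpina1b: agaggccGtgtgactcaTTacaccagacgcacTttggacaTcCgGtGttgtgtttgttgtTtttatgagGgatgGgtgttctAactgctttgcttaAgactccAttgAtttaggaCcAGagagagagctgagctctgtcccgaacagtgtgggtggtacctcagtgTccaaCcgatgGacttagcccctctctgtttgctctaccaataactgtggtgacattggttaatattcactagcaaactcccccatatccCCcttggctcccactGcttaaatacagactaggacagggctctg
Serpina1c: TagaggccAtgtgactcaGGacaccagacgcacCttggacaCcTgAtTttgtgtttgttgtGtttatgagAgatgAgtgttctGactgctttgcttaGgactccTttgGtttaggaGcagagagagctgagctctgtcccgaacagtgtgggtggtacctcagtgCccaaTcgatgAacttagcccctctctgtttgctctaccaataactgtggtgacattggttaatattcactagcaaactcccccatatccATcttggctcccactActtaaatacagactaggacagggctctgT
The alignment held 276 identical bases in 302 columns, or 91.4%. The TATA box letters TATAAA, the CCAAT box, the GC box letters GGGCGG and the letters GTTAAT, part of the site of the liver factor HNF1, were searched on both strands. GTTAAT occurred 1 time in each window and in 7.1% of all 32851 windows of 300 bases. CCAAT occurred 2 times in the Serpina1b window, 3 times in the Serpina1c window and in 37.4% of all windows, while TATAAA, found in 13.6% of all windows, and GGGCGG, in 35.7%, occurred in neither.

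Baiap2l1 was the other gene higher in BALB, and it was not silent in the other strain. In BALB CF lungs the brightest probe set (1424951_at) read 10.49 at the lowest, 10.71 at the median and 10.81 at the highest. B6 CF arrays read 7.56, 7.65 and 7.56 in females and 7.54 and 7.65 in males, above 88.8% of all probe sets on average. The arrays of the strains did not overlap. BALB was 8.58-fold higher (difference 3.10, SE 0.08, adjusted p = 2.67e-17), and the second probe set (1451539_at) gave 3.04 (SE 0.07, adjusted p = 1.25e-18). In control lungs the differences were 2.86 and 3.12. Of 8 measured genes in a list of I-BAR proteins and their actin partners, 2 were higher in BALB CF lungs and none lower. Apart from Baiap2l1, chosen for its gap, 1 of 7 passed, against 19.7% of all genes. It was Cdc42, a small GTPase that drives actin assembly, with a difference of 0.23 (SE 0.07, adjusted p = 0.0243). The related I-BAR genes Baiap2 (-0.09, adjusted p = 0.577) and Mtss1 (0.16, adjusted p = 0.133) did not pass.

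Rpgrip1 was high in B6 at 1 probe set and low in both strains at 3. The brightest (1421144_at) read 3.54 at the lowest, 3.73 at the median and 3.79 at the highest in BALB CF lungs. In B6 CF lungs it read 8.28, 8.23 and 8.38 in females and 8.11 and 8.24 in males. BALB was lower (difference -4.55, SE 0.11, adjusted p = 7.29e-18), and in control lungs the difference was -4.50. The arrays of the strains were 4.32 apart in CF lungs. The other probe sets averaged 3.81 (1431357_a_at), 3.62 (1454231_a_at) and 3.07 (1451785_at) in BALB CF lungs and 4.01, 3.84 and 3.04 in B6 CF lungs. Their strain differences were -0.19 (adjusted p = 0.0682), -0.22 (0.0944) and 0.02 (0.851), so the large gap was read by 1 of 4 probe sets.

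Of 6 measured genes in a list of RPGRIP1 and ciliary transition zone proteins, 4 were lower in BALB CF lungs and none higher. Apart from Rpgrip1, chosen for its gap, 3 of 5 passed, against 19.7% of all genes. These were Rpgr, the GTPase regulator it binds (-0.49, adjusted p = 0.0013), Cep290 (-0.40, adjusted p = 0.0353) and Nphp4 (-0.25, adjusted p = 0.0353). All 6 markers of ciliated cells measured were lower in BALB CF lungs too. Their mean per array lay between 6.05 and 6.54 in BALB CF lungs, between 6.85 and 7.14 in B6 CF lungs, between 6.36 and 6.50 in BALB control lungs and between 6.83 and 7.34 in B6 control lungs, with Foxj1 as the defining gene at 6.04 in BALB CF and 7.02 in B6 CF lungs. Their part in the Rpgrip1 difference was not tested. In whole lung, fewer cells of a type and less RNA per cell cannot be told apart.

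Ang was low in BALB at all 3 of its probe sets. The brightest (1438936_s_at) read 3.99 at the lowest, 4.06 at the median and 4.13 at the highest in BALB CF lungs. The B6 CF lungs read 8.59, 8.66 and 8.68 in females and 8.41 and 8.36 in males. BALB was lower (difference -4.46, SE 0.08, adjusted p = 4.32e-20), and the control difference was -4.44. The second probe set (1438937_x_at) gave -3.85 (SE 0.08, adjusted p = 4.02e-19). The third (1450717_at) gave a smaller gap, with 5.23 ± 0.17 in BALB CF lungs (SD, n = 6) and 6.62 ± 0.26 in B6 CF lungs (n = 5), a difference of -1.34 (SE 0.09, adjusted p = 1.84e-10), still without overlap.

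Ang and Rnase4, a ribonuclease gene of the same family, have the same RefSeq start window, and its letters are shown because both genes were lower in BALB but by very different amounts. The window is chr14:51090827-51091126 on the plus strand in GRCm38.p6, and 1 of the 2 Rnase4 windows is identical to it. Capitals mark matches to CCAAT or to GGGCGG on either strand.
Ang and Rnase4: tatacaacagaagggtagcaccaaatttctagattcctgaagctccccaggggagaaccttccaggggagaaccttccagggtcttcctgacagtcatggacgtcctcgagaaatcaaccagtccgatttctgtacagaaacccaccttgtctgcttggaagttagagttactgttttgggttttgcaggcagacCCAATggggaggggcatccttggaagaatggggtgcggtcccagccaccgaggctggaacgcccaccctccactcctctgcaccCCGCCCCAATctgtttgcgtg
It held 2 CCAAT matches and 1 GGGCGG match, which overlaps the second CCAAT, and neither TATAAA nor GTTAAT. Rnase4 averaged 10.53 ± 0.08 in BALB CF lungs (SD, n = 6) and 11.09 ± 0.14 in B6 CF lungs (n = 5), a difference of -0.54 (SE 0.06, adjusted p = 1.04e-06) beside -4.46 for Ang. Of 7 measured genes in a list of angiogenin ribonucleases with their inhibitor and receptor, 2 were lower in BALB CF lungs, Ang and Rnase4, and none was higher. Apart from Ang, chosen for its gap, 1 of 6 passed, against 19.7% of all genes. Ang2 (-0.15, adjusted p = 0.142) and the inhibitor Rnh1 (-0.11, adjusted p = 0.248) did not pass. Ang4 ranged from 3.10 to 4.95 in BALB CF lungs and from 2.98 to 3.43 in B6 CF lungs at one probe set, and reached 8.90 in BALB control and 8.58 in B6 control lungs.

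Sox11 was low in all BALB lungs, while its level in B6 lungs also varied with genotype. The brightest probe set (1431225_at) read 3.47 at the lowest, 3.66 at the median and 4.01 at the highest in BALB CF lungs. B6 CF arrays read 7.70, 7.87 and 7.55 in females and 6.81 and 6.89 in males. BALB was lower (difference -3.59, SE 0.16, adjusted p = 1.98e-13), and 4 other probe sets passed with differences of -0.78 to -1.37. These 4 averaged within the range of genes that lung does not use, given below, in both strains. The sixth (1436790_a_at) was low in both strains and gave -0.14 (adjusted p = 0.482). In control lungs the difference at the brightest probe set was -4.43. The strain difference in CF lungs minus that in control lungs was 0.84 (SE 0.21), the largest such value among the brightest probe sets of the 8 genes, given without a test because it holds the contrast of the choice.

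**Figure D2:**
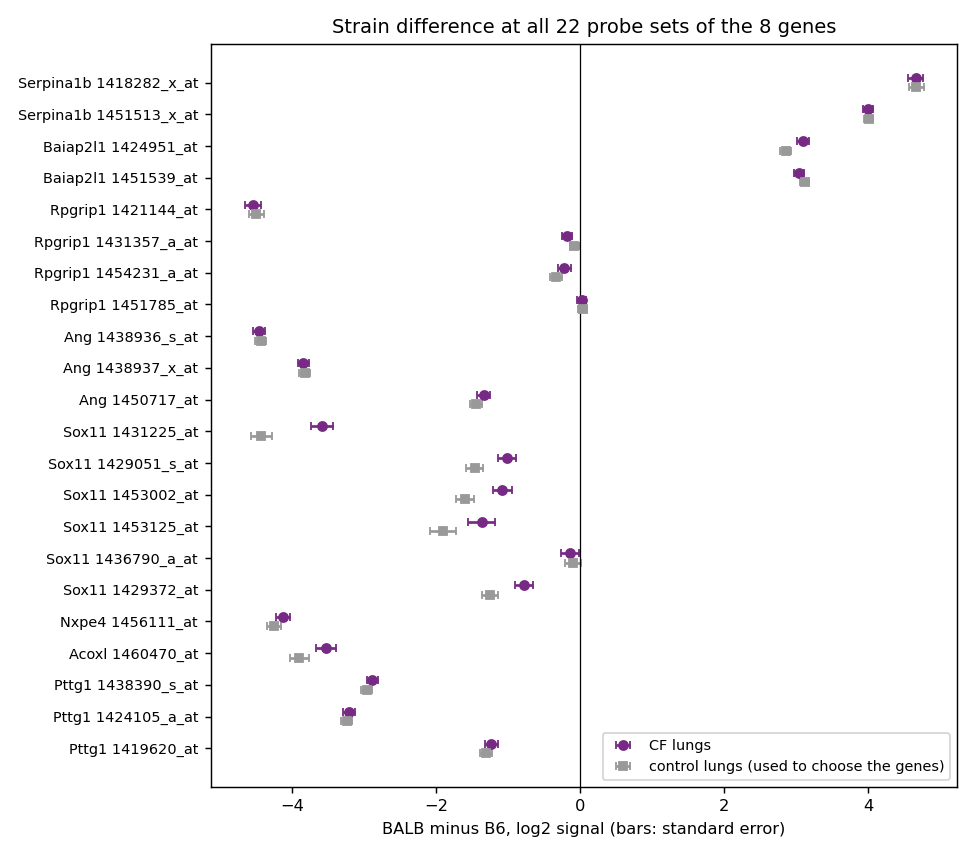
BALB minus B6 difference in log2 signal (x axis) at each of the 22 probe sets (y axis) with its standard error, in CF lungs (circles) and in control lungs (squares), whose values chose the genes. CF and control values lie close together for most probe sets, and for Sox11 the CF value is nearer 0 at 5 of 6; 3 probe sets of Rpgrip1 and 1 of Sox11 lie near 0.

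Sox4, another SoxC factor, went the other way. It averaged 9.77 ± 0.13 in BALB CF lungs (SD, n = 6) and 8.55 ± 0.18 in B6 CF lungs (n = 5), a difference of 1.24 (SE 0.15, adjusted p = 3.34e-06 over all probe sets), with a control difference of 0.25. Of 6 measured genes in a list of SoxC factors and their embryonic targets, Sox4 was higher and Sox11 lower in BALB CF lungs. Apart from Sox11, chosen for its gap, 1 of 5 passed, against 19.7% of all genes. The neuronal targets Tubb3 (-0.05, adjusted p = 0.739) and Dcx (0.04, adjusted p = 0.828) and the regulator Tead2 (0.07, adjusted p = 0.752) did not pass.

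Nxpe4 and Acoxl had 1 probe set each and were low in BALB. Nxpe4 (1456111_at) read 2.71 at the lowest, 2.82 at the median and 3.16 at the highest in BALB CF lungs. In B6 CF lungs it read 6.87, 6.96 and 6.63 in females and 7.21 and 7.09 in males. BALB was lower (difference -4.13, SE 0.10, adjusted p = 5.3e-18; -4.25 in control lungs). The family member Nxpe2, which lies next to it, was lower too, with 3.23 in BALB CF lungs and 3.86 in B6 CF lungs (difference -0.62, SE 0.09, adjusted p = 1.62e-05), while Nxpe3 did not pass (-0.10, adjusted p = 0.479).

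Acoxl (1460470_at) read 3.91 at the lowest, 4.34 at the median and 4.54 at the highest in BALB CF lungs. The B6 CF lungs read 7.58, 7.88 and 7.64 in females and 8.25 and 7.68 in males. BALB was lower (difference -3.53, SE 0.14, adjusted p = 4.57e-14; -3.90 in control lungs), with no overlap of the arrays. Of 10 measured genes in a list of acyl-CoA oxidases and peroxisomal beta-oxidation, 3 were lower in BALB CF lungs and 1 higher. Apart from Acoxl, chosen for its gap, 3 of 9 passed, against 19.7% of all genes. Of these, Acox2, which oxidises bile acid precursors, differed by -0.96 (SE 0.12, adjusted p = 4.53e-06) and Hsd17b4, the next enzyme of the pathway, by -0.21 (adjusted p = 0.0164). Acox3 was higher by 0.22 (adjusted p = 0.0434).

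Pttg1 was lower in BALB at all 3 probe sets, and its probe sets differed in how low BALB read. That probe set (1438390_s_at) read 6.73 at the lowest, 6.91 at the median and 7.06 at the highest in BALB CF lungs. B6 CF arrays read 9.68, 9.92 and 9.71 in females and 9.91 and 9.75 in males. The ranges did not overlap. BALB was 7.40-fold lower (difference -2.89, SE 0.08, adjusted p = 2.67e-17), and the other probe sets gave -3.21 (1424105_a_at, adjusted p = 1.98e-17) and -1.23 (1419620_at, adjusted p = 1.04e-09). These averaged 5.07 ± 0.14 and 4.06 ± 0.16 in BALB CF lungs (SD, n = 6) and 8.29 ± 0.12 and 5.29 ± 0.14 in B6 CF lungs (n = 5). The control differences were -2.97, -3.25 and -1.31.

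Securin is made in dividing cells, and all 9 proliferation markers measured were also lower in BALB CF lungs, with differences of -0.21 (Plk1) to -1.15 (Rrm2). Their mean per array lay between 4.86 and 5.08 in BALB CF lungs, between 5.32 and 5.87 in B6 CF lungs, between 4.55 and 4.88 in BALB control lungs and between 4.76 and 4.93 in B6 control lungs. Their part in the Pttg1 difference was not tested. Of 13 measured genes in a list of securin, separase and cohesin, 2 were lower in BALB CF lungs and none higher. Apart from Pttg1, chosen for its gap, 1 of 12 passed, against 19.7% of all genes. It was Bub1b, a spindle checkpoint kinase (-0.74, adjusted p = 1.39e-06), while separase itself, Espl1, did not pass (-0.24, adjusted p = 0.0562).

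How low the low strain read was set against genes that lung does not use. The means of 12 such genes lay between 2.85 and 5.95 with a median of 4.09, and those of 3 Y-linked genes lay between 2.37 and 3.28 in the female lungs, where they cannot be expressed. In male lungs the same 3 Y-linked genes averaged 4.23 to 6.44 with a median of 5.02. A level inside the first range therefore does not show that a gene is unused. The brightest probe set of the low strain lay inside the first range for 6 of the genes. In CF lungs it averaged 2.96 ± 0.21 for Serpina1b in B6, and in BALB 2.86 ± 0.17 for Nxpe4, 3.69 ± 0.11 for Rpgrip1, 3.69 ± 0.21 for Sox11, 4.05 ± 0.06 for Ang and 4.31 ± 0.26 for Acoxl (SD, n = 5 for B6 and 6 for BALB). It lay above the range for Baiap2l1 in B6 (7.59 ± 0.05), as did the second Baiap2l1 probe set (6.85 ± 0.11), so the label of expression in one strain only did not hold for this gene. For Pttg1 in BALB the probe sets disagreed, with the brightest above the range (6.91 ± 0.11) and the other 2 inside it (5.07 and 4.06). The last of these, 1419620_at, read inside the range in B6 CF lungs too (5.29 ± 0.14). Its level cannot tell a used gene from an unused gene, though the arrays of the strains did not overlap. For the other 6 genes the brightest probe set shows only a signal no higher than that of unused genes. The sequences of the probes were not used here, so less transcript and a poorer match of the probes to one strain cannot be told apart.

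The strain differences held in each sex. In CF females 4 probe sets were higher in BALB (5.66% of all) and 14 lower (7.61%), and in CF males 4 were higher (5.11%) and 13 lower (5.4%). The female minus male difference of the strain difference passed at 0 of 22 probe sets with limma, where 0.346% of all passed, and 6 had an unadjusted p under 0.05. The largest among the brightest probe sets was that of Serpina1b, with a strain difference of 4.30 in females and 5.03 in males (difference -0.73, SE 0.21, adjusted p = 0.139). Without BALB CF female 1 it was -0.93 and passed (adjusted p = 0.041). The sex effect over all groups passed at 0 of 22 probe sets (1.29% of all), and 0 had an unadjusted p under 0.05.

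CF effects were small beside the strain differences, which the choice of genes for a very large strain gap made likely beforehand. The CF effects share the control arrays that the choice used. Between CF and control lungs of BALB, 2 probe sets fell (2.33% of all) and 0 rose (2.6%); between those of B6, 6 fell (1.99%) and 0 rose (2.72%). Serpina1b, Baiap2l1, Rpgrip1, Nxpe4, Acoxl and Pttg1 did not pass in either strain. The largest of these effects at a brightest probe set was that of Acoxl in B6, with 7.58 to 8.25 in CF lungs and 7.98 to 8.64 in control lungs (difference -0.39, SE 0.14, adjusted p = 0.132), and it passed without B6 control female 1 (-0.49, adjusted p = 0.0362). Without the arrays high in squamous or muscle markers, that array among them, the Acoxl effect was -0.48 and did not pass (limma adjusted p = 0.0699).

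The CF effect on Ang was small in both strains, and its calls were not stable. In BALB both probe sets that passed read within the range of genes that lung does not use, with 4.05 and 4.02 in CF lungs and 4.34 and 4.31 in control lungs on average. In BALB the brightest probe set read 3.99, 4.06 and 4.09 in CF females and 4.05, 3.99 and 4.13 in CF males, against 4.49, 4.49 and 4.25 in control females and 4.54, 4.01 and 4.24 in control males. It fell by 0.29 (SE 0.08, adjusted p = 0.0326) with overlap of the groups, and the second probe set fell by 0.29 (adjusted p = 0.0261) without overlap. The first call was lost in 7 and the second in 5 of the 23 fits that each left out 1 array, with adjusted p-values up to 0.0921 and 0.0775. In B6 the second probe set fell by 0.28 (adjusted p = 0.049), lost in 19 of 23 such fits, and the brightest differed by -0.26 (adjusted p = 0.0691). Without the 5 arrays high in squamous or muscle markers, all BALB CF females among them, the BALB effect could be read in males alone. In males it was -0.21 at the brightest probe set (limma adjusted p = 0.409), so it is not the effect over both sexes given above. Without the 5 high in intestinal markers the effect over both sexes was -0.31. Only control female 2 and control male 3 were left as BALB controls in that fit, so no p-value is given.

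Sox11 fell in B6 CF lungs at 5 of its 6 probe sets, by 0.49 to 0.82. Of these, only the brightest read above the range of genes that lung does not use. The other 4 averaged 3.90 to 4.98 in B6 CF lungs and 4.34 to 5.51 in B6 control lungs, inside that range. At the brightest, control B6 lungs read 7.18, 8.24 and 8.31 in females and 8.60, 8.12 and 8.15 in males, and the CF values are those given above. The CF and control arrays overlapped only through control female 1, at 7.18. Sox11 fell by 0.82 (SE 0.16, adjusted p = 0.00343). Without control female 1, which also carried squamous, muscle and intestinal signal, it fell by 1.003 (adjusted p = 1.62e-05), and without both B6 control arrays high in squamous or muscle markers it fell by 1.04 (SE 0.10, adjusted p = 4.34e-05). The other 4 probe sets lost the call in 1, 2, 4 or 6 of the 23 fits that left out 1 array. At the brightest probe set the call held in all 23 fits that left out 1 array, with an adjusted p of at most 0.0271. In BALB the difference was 0.02 (SE 0.15, adjusted p = 0.97) at a level within the range of genes that lung does not use. Sox4 fell as well in B6 CF lungs, by 0.53 (SE 0.15, adjusted p = 0.0488), and Sox12 rose by 0.31 (adjusted p = 0.00394).

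At its brightest probe set the fall of Sox11 was larger in males, of which 2 CF arrays were measured. In B6 males it fell by 1.44 (SE 0.23, adjusted p = 0.000743), and in B6 females the difference was -0.20 (SE 0.21, adjusted p = 0.865). Over the 22 probe sets, 7 fell in B6 CF males (2.62% of all fell, and 6.24% changed in either direction), while in B6 CF females 0 passed (0.815%). The 7 were probe sets of Sox11 and of Ang. The female minus male difference was 1.24 (SE 0.31, adjusted p = 0.0444), the 1 of 22 probe sets that passed (1.75% of all). Without B6 CF male 1 its adjusted p was 0.152, and without control female 1 the difference was 0.87 (adjusted p = 0.0309), with -0.57 in females (adjusted p = 0.0625). At the other Sox11 probe sets the female minus male difference lay between -0.07 and 0.85 and did not pass (limma adjusted p = 0.0861 to 0.941). Without control female 1 it was -0.02 at 1429051_s_at and 0.05 at 1453002_at. The same difference passed at 0 of 22 probe sets in BALB (0.0178% of all), and 3 had an unadjusted p under 0.05. Nxpe4 differed between CF and control B6 lungs by -0.40 in females and 0.37 in males, and the difference between the sexes missed the threshold (-0.77, SE 0.20, adjusted p = 0.0527). Markers of some blood cells moved in the same contrast: all 4 neutrophil and all 5 T cell markers measured rose in B6 CF lungs, with list medians of 0.98 and 1.09. Of 5 B cell markers 0 passed (median 0.36), and 8 of 9 proliferation markers rose (median 0.80). The part of any of these cells in the Sox11 fall was not tested.

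**Figure D3:**
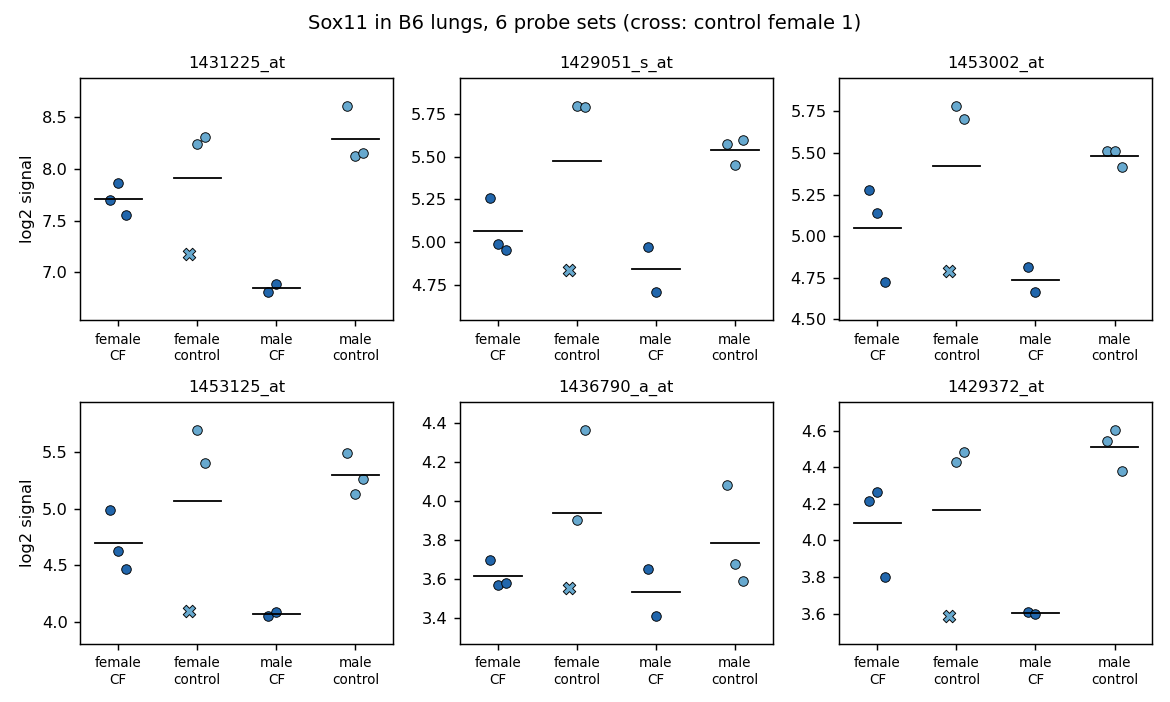
Log2 signal (y axis) of the 6 Sox11 probe sets on the 11 B6 arrays by sex and genotype (x axis), each point 1 array and the bar the group mean; the cross is control female 1. The 2 CF males are the lowest at 1431225_at (6.81 and 6.89), and at all 6 probe sets the cross lies below the other control arrays.

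Neighbouring genes did not show gaps of this size. Around each of the 8 genes, the 10 measured genes on each side in the RefSeq gene order of GRCm38.p6 made 154 different genes. Ang and Rpgrip1 lie near each other on chromosome 14, with starts at 51091077 and 52104241. Their neighbours are partly the same genes, but neither of the 2 is among the 10 of the other. Whether their gaps, both with BALB lower, are linked was not tested. In CF lungs 17 of the 154 genes were higher and 26 lower in BALB, where 19.7% of all 18193 genes changed in either direction. A difference of 2-fold or more was read for 3 of the 154, against 1.67% of all genes, and the median size was 0.125 beside 0.103 over all genes. The 3 were Serpina3n, an acute-phase serpin 9 places from Serpina1b (-1.14, adjusted p = 4.6e-07), and Nnmt, nicotinamide N-methyltransferase (-1.55, adjusted p = 2.04e-08), and Zbtb16, a zinc finger repressor (-1.40, adjusted p = 0.0237), 5 and 6 places from Nxpe4. Zbtb16 differed by 0.03 in control lungs. Of the 32 genes within 2 places, 9 passed. Next to Rpgrip1, Supt16, a histone chaperone subunit, was higher in BALB (0.98, adjusted p = 6.57e-11). Next to Ang, Rnase6 was lower (-0.70, adjusted p = 0.000311), on the side opposite Rnase4. Nxpe2 beside Nxpe4 is given above, and Bri3 beside Baiap2l1 was lower (-0.28, adjusted p = 0.0102). Within 2 places of Acoxl, Bub1 (-0.41), Bcl2l11 (-0.33) and Morrbid (-0.41) were lower and Mtln was higher (0.48), with adjusted p-values of 0.00906, 0.0155, 0.000773 and 2.32e-05. Around Acoxl 11 of 20 genes passed, 6 higher and 5 lower, the largest of them Mertk, a receptor for the uptake of dead cells (-0.66, adjusted p = 4.58e-05).

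**Figure D4:**
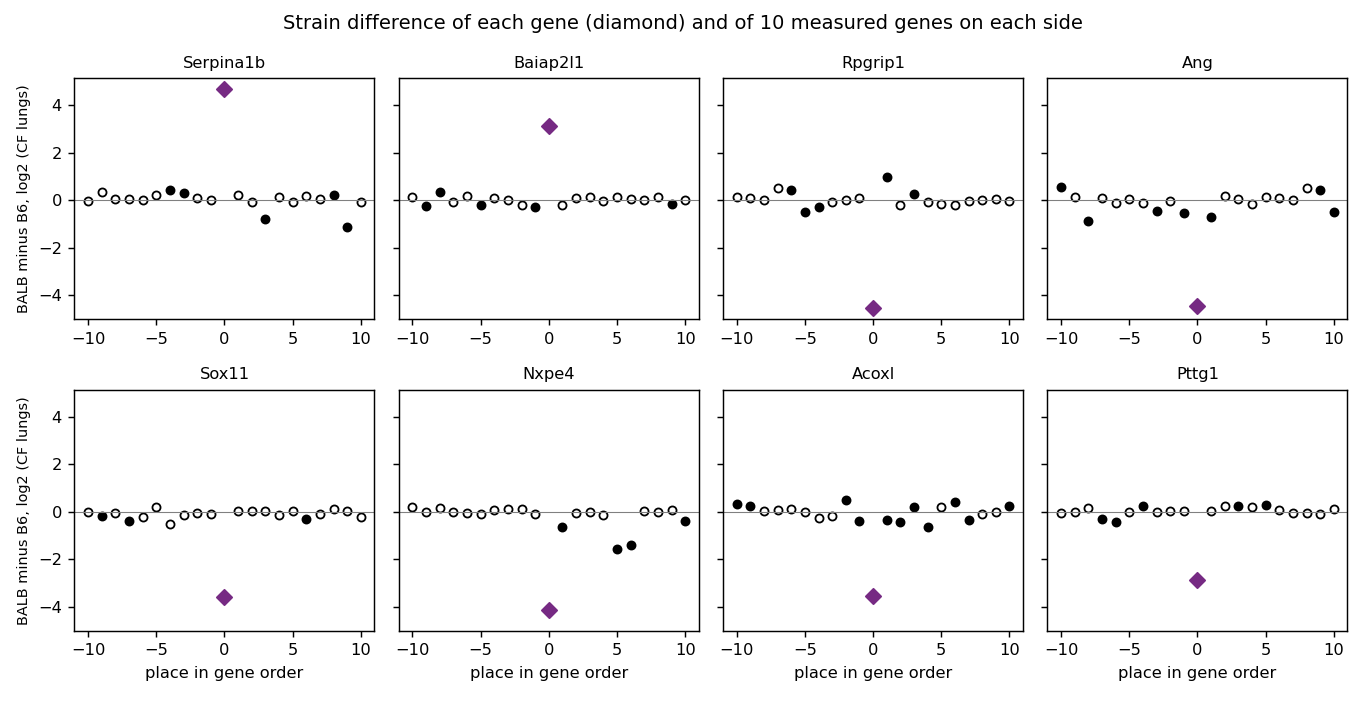
BALB minus B6 difference in log2 signal in CF lungs (y axis) of each of the 8 genes (diamond) and of the 10 measured genes on either side (circles, filled where the adjusted p is under 0.05), by place in gene order (x axis). The diamonds lie at 3.10 or above, or at -2.89 or below, and the circles between -1.55 and 0.98.

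The pattern of each gene over the 23 arrays was most like that of other genes with a large strain gap, with Pearson correlations given as a description, since the strain shared by the arrays sets them. The 3 nearest of other genes were Spon1 (r = 0.997), H2-Ea and H2-D1 (0.994 each) for Serpina1b, and H2-Ea (0.996), H2-D1 (0.995) and Pdxdc1 (0.994) for Baiap2l1. Rpgrip1 was most like Rps9, Ang and Pdxdc1 (0.997 each), and Ang like Rpgrip1 (0.997), Rps9 (0.996) and Uqcr10 (0.994). Nxpe4 was most like Trim34a (0.997), Pttg1 (0.996) and Ifi213 (0.995), Pttg1 like Nxpe4 (0.996), Trim34a (0.996) and Rps9 (0.995), and Acoxl like Pttg1 (0.993), Nxpe4 (0.992) and Ifi213 (0.99). Sox11 had the lowest best match, Cpne8 (0.986), followed by Slc25a51 and Prxl2c (0.985 each). The spread between arrays of a group was widest for Sox11 in B6 (pooled SD 0.38) and narrowest for Rpgrip1 in B6 (0.07).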

How the data were processed

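Per the labels, biotin-labelled total RNA of the whole right lung was hybridised to 23 arrays. The deposited table holds 45101 probe sets. Its values were taken to be log2 signals, a scale inferred from the deposited values; how probes were summarised and arrays normalised is not given in the sources used here. Array medians lay between 4.56 and 4.64, and arrays correlated at 0.971 to 0.996. Leaving out 64 control probe sets, 45037 were tested.

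One mean for each of 8 groups (strain by sex by genotype) was fitted with limma 3.58.1 in R 4.3.3 (15 residual and 5.81 prior degrees of freedom). The fit, tested on simulated data, recovered its planted changes. All groups share 1 estimate of the spread, and the number of arrays limits the precision. The probe sets of a gene are those annotated with its symbol alone on the platform, and the brightest has the highest mean over all arrays. The genes named are the 8 genes, list members that passed, neighbours within 2 places that passed or of 2-fold or more, and the 3 genes most like each. Members and lists were chosen with earlier results of these data known, and other genes named were picked after their values were seen. The effects of CF by sex and the fits without arrays high in squamous or muscle (list mean over 5.5) or intestinal markers (over 5) were added after the data were seen. Start windows and gene order came from RefSeq, GRCm38.p6.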

Additional observations from a re-analysis of the deposited data

Results flagged for a closer look

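Among 88 group and probe set combinations of these genes, 11 held an array whose gap to its nearest neighbour was too large a share of the group's range by Dixon's test, or 12.5%; chance flags about 1 in 20. The 5 in 1 array concern Sox11: B6 control female 1 read 7.176, 4.84, 4.788, 4.097 and 3.589 at 5 probe sets, each below the other 5 control arrays. That array also carried squamous, muscle and intestinal signal, whose part was not tested. The others were B6 control male 3 for Baiap2l1 (6.721 at 1451539_at), BALB CF female 1 and B6 control female 2 for Rpgrip1 (3.917 and 4.21 at 1454231_a_at), BALB CF male 3 for Rpgrip1 (2.884 at 1451785_at), BALB control female 3 for Sox11 (2.886 at 1429372_at) and BALB CF male 2 for Pttg1 (4.816 at 1424105_a_at).

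The effect of CF on Sox11 in B6 lungs differed between the sexes by 1.239 at the brightest probe set (female minus male, limma adjusted p = 0.0444). It did not pass at any other Sox11 probe set, nor at the brightest without B6 CF male 1 (adjusted p = 0.152).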

How the results depend on the processing

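The strain difference in CF lungs passed at 20 of 22 probe sets after quantile normalization, 19 after median centring, 18 with a trended robust variance and 18 in a fit of the CF arrays alone, and at 18 to 19 with each array left out in turn (6220 to 8486 over all probe sets). The ranges without 1 array were 18 to 18 in CF females (3620 to 6172 over all), 15 to 18 in CF males (2455 to 5054), 2 to 7 for the CF effect in B6 (852 to 2329), 0 to 4 for that in BALB (1368 to 2851), 0 to 1 for the sex difference of the strain difference (11 to 266) and 0 to 0 for the sex effect (252 to 1002). Without arrays high in squamous or muscle markers, 18 probe sets of these genes and 5149 of all passed for the strain difference, and 1 and 1040 for the CF effect in BALB; without those high in intestinal markers the CF effect in BALB passed at 0 and 326. With the replicate number as a block, the strain difference passed at 18, the CF effect at 6 in B6 and 2 in BALB; same-numbered arrays of different groups correlated at a median of 0.00209 (-0.185 to 0.347), so the numbers were not taken to pair the arrays. Median centring gave 905 higher and 1312 lower CF calls in BALB over all probe sets, where the values as deposited gave 1169 and 1048. Read at its dimmest probe set, the Rpgrip1 difference was 0.02385 (adjusted p = 0.851); the cause was not tested. An exact two-sided permutation test over the CF arrays gave p = 0.00433 for each brightest probe set, the smallest it can give for 6 against 5.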
